A study of Caenorhabditis elegans with 15 samples.

Results

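The smg-4 control is the strain SZ340 of the nematode C. elegans, which carries smg-4(az152), a mutant allele of a nonsense-mediated decay gene, and neither a KIN17 nor a PRCC mutation. It was represented by all 3 libraries with this label, out of 15 libraries of 5 strains. The other strains, with 3 libraries each, combined smg-4(az152) with an allele of dxbp-1, the worm KIN17 gene, or of prcc-1. KIN17(K23N) is dxbp-1(az121) and its strain also carries unc-73(e936az30), and KIN17(M107I) is dxbp-1(az52) in a strain with unc-73(az63). PRCC(I371F) is prcc-1(az122) and PRCC(null) is prcc-1(gk5556), and neither of these strains nor the control is labelled with an unc-73 allele, so in the KIN17 strains both genes differ from the control. All were cultures of mixed stages, grown at 20 °C on bacterial lawns and lysed whole, and polyA RNA was sequenced from separate RNA isolations. Ages were not given beyond the mixed stages, and no library had intact nonsense-mediated decay, so nothing here compares the control with normal decay. Mixed-stage cultures also hold germ line, embryos and somatic tissues at once, and a PSI is an average over all of them. Members were all splicing events with a score in all 3 control libraries, which made 33231 of the 40212 events in the tables.

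An intron is removed between a 5’ splice site, where it begins, and a 3’ splice site, where it ends. Introns nearly always begin with GU and end with AG. Where several usable sites lie close together, the spliceosome can pick either, and the choice adds or removes a few nucleotides of mRNA. A shift that is not a whole number of codons changes the reading frame, and such mRNAs are typical targets of nonsense-mediated decay, a pathway in which SMG-4, the worm UPF3 protein, takes part. A strain without this pathway keeps frame-shifted mRNAs that are otherwise destroyed, so its libraries show splice site choice before that loss. C. elegans introns are short, and its 3’ splice sites follow the UUUUCAG consensus closely. KIN17 and PRCC are spliceosome-associated proteins, and the control is the level from which their mutants were measured.

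The measurement was PSI, the percent spliced in, which is the share of an event that has the included form. For an alternative 5’ event PSI is the use of the downstream of both sites, and for an alternative 3’ event it is the use of the upstream one. The tables gave a score for 16935 alternative 5’ events and 13898 alternative 3’ events in all 3 control libraries, with the sites at most 50 nt apart. The classes taken from gene annotation added 828 retained introns, 572 skipped exons, 518 alternative first and 241 alternative last exons, 72 mutually exclusive exons and 167 events in which several exons are skipped as a unit (multiple skipped exons). A single library scored between 33415 and 33839 of the 5’ and 3’ events. Replicate 2 had the fewest. The score tables hold no read counts, so the depth behind a PSI is unknown and no interval is attached to a single value. The tables write the ends of the scale as 0.1% and 99.9%, and these stand for the use of 1 site alone. Such end values made up 63.8% to 66.1% of the 5’ values and 47.5% to 51.2% of the 3’ values of a control library, and replicate 2 was highest in both. Gene expression is not in the tables, so the smg-4 genotype itself could not be checked.

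Most 5’ splice site pairs were resolved almost completely to 1 site. Introns were kept with at least 5 reads over all 15 libraries, so pairs with a minor site read mainly in mutants can be among them. The same holds for the 3’ pairs below. The minor site, the less used of a pair by its mean over the 3 libraries, was used under 1% in 11170 events (66.0%) and stood at an end of the scale in all 3 libraries in 7370 (43.5%). Both sites were used, which here means a minor site of at least 10%, in 2695 of the 16935 events by the mean (15.9%). Counted within each library the share was 12.2%, 11.8% and 12.2%, a mean of 12.1% ± 0.246 (SD, n = 3). The minor site reached 10% in every library in 1003 events (5.92%), a stricter count that was added after the data were seen. Events with both sites used by the mean had a median SD of 18.3 percentage points, and those that passed in every library had 6.62.

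Alternative 3’ splice sites were shared more often. By the mean, both sites were used in 3278 of 13898 events (23.6%), and 1524 (10.97%) passed in every library. The share within a library was 19.5%, 18.2% and 19.1%, a mean of 18.9% ± 0.704 (SD, n = 3). The lowest of these 3 values, in replicate 2, lay above the highest of the 5’ values, 12.2%. A minor site under 1% was found in 7003 events (50.4%). The 5’ and 3’ events come from the same 3 libraries, so this difference was not tested.

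How often both sites were used depended on the distance between them. In 5’ pairs 1 nt apart, both sites were used in 3.43% ± 0.233 of 3650 events (mean of the 3 libraries ± SD). At 4 nt, the most common spacing with 4310 events, the share was 5.73% ± 0.152. It rose to 13.6% ± 0.385 at 5 nt and to 23.7% ± 0.636 at 6 nt, and the highest value below 20 nt was 35.2% ± 2.45, at 9 nt. In 3’ pairs the peaks were sharper. Both sites were used in 43.1% ± 2.09 of 1171 events 6 nt apart and in 37.5% ± 0.737 of 1018 events 9 nt apart. The distances between and beside them were far lower, with 20.6% ± 1.40 at 7 nt, 18.2% ± 0.915 at 8 nt and 12.3% ± 1.03 at 10 nt. The 3 libraries kept these distances apart, since the lowest library at 6 nt, 40.7%, lay above every library at 7 nt. Of all 1524 3’ events that passed in every library, 385 had sites 6 nt apart and 269 had sites 9 nt apart.

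**Figure D1:**
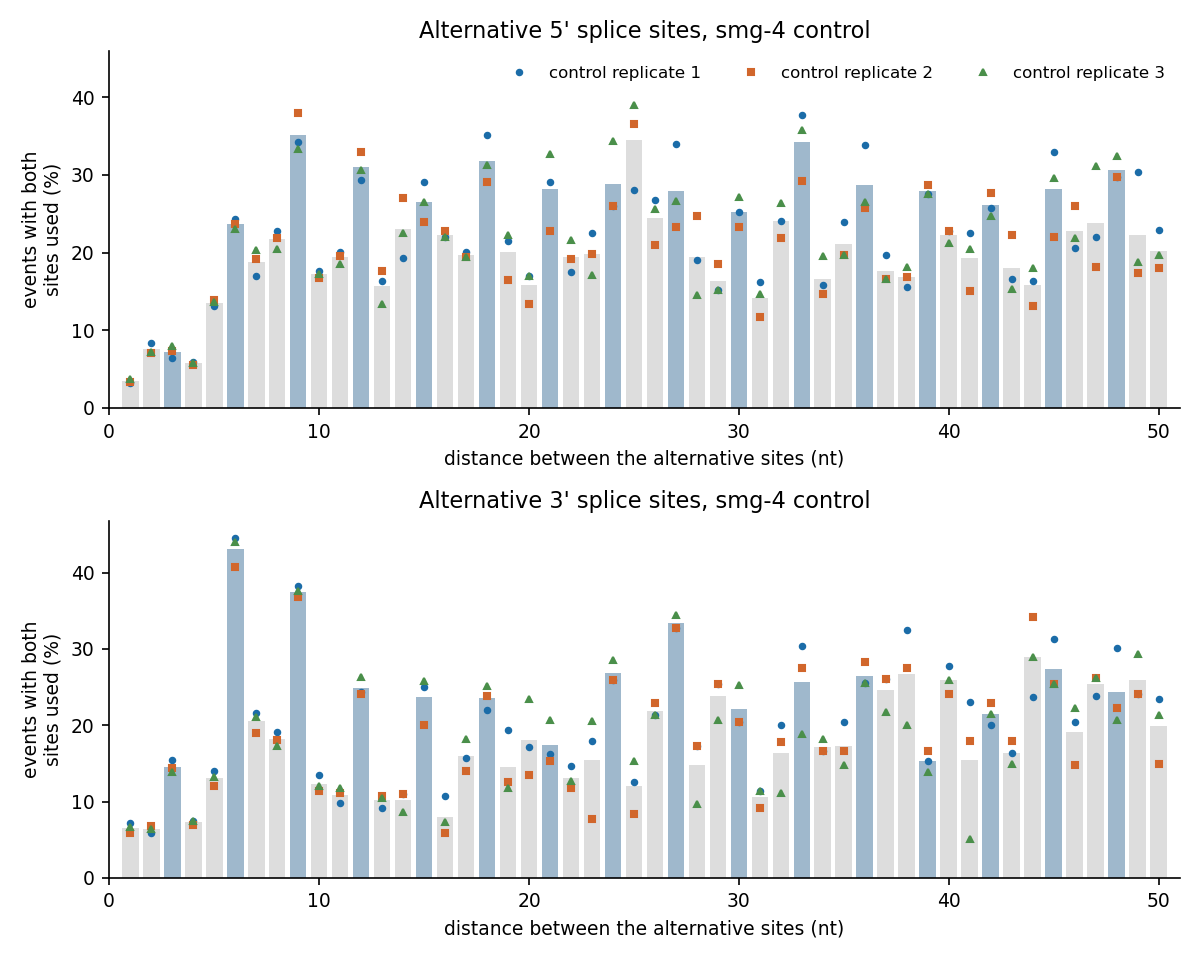
Share of events with both sites used (minor site at least 10% within the library, in percent) against the distance between the sites in nt, for alternative 5’ sites (top) and alternative 3’ sites (bottom). Bars are the mean of the 3 smg-4 control libraries, points are the single libraries, and blue bars mark distances that are multiples of 3 nt. The 3’ panel peaks at 43.1% at 6 nt and 37.5% at 9 nt, and the 5’ panel is lowest at 1 nt, with 3.43%.

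Spacings of whole codons were more common among the pairs that were shared. Of the 5’ events with both sites used, 37.2% ± 0.501 (mean and SD of 3 libraries) had sites a multiple of 3 nt apart, against 20.1% of all 5’ events and 15.1% of those with a minor site under 1%. For 3’ events the shares were 56.7% ± 0.523 of those with both sites used, 35.8% of all and 27.4% of those under 1%. The excess was also present beyond the shortest spacings. Between 16 and 50 nt, both sites were used by the mean in 41.8% of 1226 5’ events at a multiple of 3 nt and in 25.4% of 2121 at other distances. The matching shares for 3’ events were 40.5% of 1240 and 21.3% of 1746. By the stricter count in every library, the gap at 16 to 50 nt was smaller, with 14.03% against 9.95% for 5’ events and 10.2% against 7.62% for 3’ events. These shares were measured in a strain without nonsense-mediated decay, and whether they would differ with decay intact was not tested.

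Which site was favored also depended on the distance. In 5’ pairs 4 nt apart the upstream site was the main one in 85.3% of events, and the downstream site in only 14.4% ± 0.046 (SD, n = 3 libraries). At 2 nt the order was the other way, with the downstream site above 50% in 60.7% ± 0.224 of 1124 events. At 1 nt it was the main site in 42.05% ± 0.220, and at 25 to 50 nt in 54.3% ± 0.261. In 3’ pairs 1 nt apart the upstream site was the main one in 90.01% ± 0.728 of events. The share was 88.0% ± 0.107 at 2 nt, 74.2% ± 0.118 at 3 nt and 84.6% ± 0.076 at 4 nt. At 6 nt it fell by more than the spread between libraries, to 36.6% ± 1.19, and at 9 nt it was 36.7% ± 1.28. At these 3’ spacings, which were shared most, the downstream AG was ahead in 61.7% of events at 6 nt and 60.7% at 9 nt. This was not particular to them, since it was ahead in 63.1% at 7 nt and 65.9% at 8 nt, where sites were shared less. Where both sites were used, neither side was minor much more often over all distances: the downstream 5’ site was the minor one in 47.7% ± 0.030 of shared 5’ events, and the upstream 3’ site in 50.1% ± 1.22 of shared 3’ events.

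**Figure D2:**
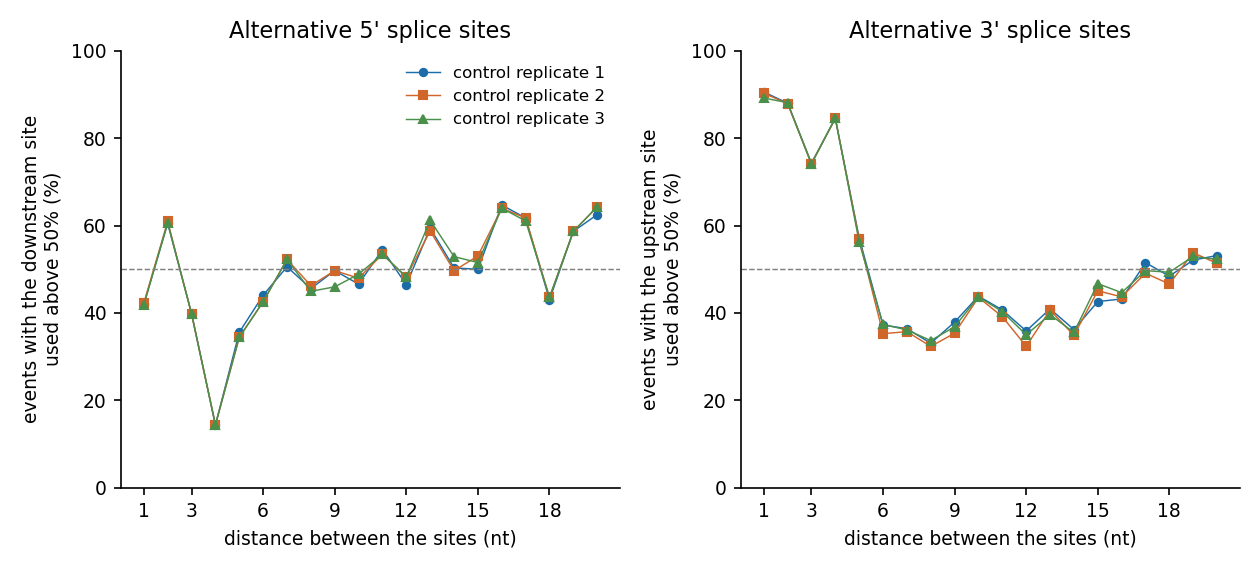
Percent of events in which the downstream 5’ site (left) or the upstream 3’ site (right) was used above 50%, against the distance between the sites from 1 to 20 nt, with a line for each smg-4 control library and a dashed line at 50%. The 5’ panel has its low point at 4 nt (14.4%), and the 3’ panel drops from 84.6% at 4 nt to 36.6% at 6 nt.

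Use of the upstream 3’ site changed steeply with the length of the intron it leaves. This site ends the intron earlier, and where that made an intron of 36 to 38 nt its median use was 0.464% ± 0.316 (mean and SD of the 3 library medians, 480 events). At 39 to 40 nt the median was 1.87% ± 0.310 and at 41 to 42 nt it was 25% ± 1.91. It reached 82.9% ± 0.967 at 43 to 44 nt, 98.3% ± 0.075 at 45 to 46 nt and 99.5% ± 0.030 at 49 to 50 nt. The share of events with the upstream site above 50% rose less steeply, from 9.72% at 36 to 38 nt to 40.1% at 41 to 42 nt. It was 56.5% at 43 to 44 nt, 67.5% at 45 to 46 nt and 71.3% at 49 to 50 nt. A high median thus still left many events with the downstream site ahead. The 50 events that left 30 nt or less did not follow this order, with a median of 79.0% ± 25.4. Events with long introns had lower medians, such as 75.2% ± 1.01 at 61 to 100 nt. Because the distance between the sites differs between these bins, the same was read at a fixed distance. With sites 6 nt apart, the median use of the upstream site was 1.09% ± 0.430 at 36 to 38 nt (20 events), 3.28% ± 2.17 at 39 to 40 nt and 19.8% ± 5.13 at 41 to 42 nt, and 32.4% ± 8.002 at 43 to 44 nt. With sites 9 nt apart it was 0.324% ± 0.325 at 36 to 38 nt, 0.817% ± 0.457 at 39 to 40 nt and 33.8% ± 3.33 at 41 to 42 nt. In the bins past 42 nt the medians stayed between 21.2% and 62.4% for both distances. The step between 40 and 42 nt was therefore larger than the spread between libraries at either distance, while the plateau was not as high as over all distances. Pairs at shorter distances were already high at 41 to 42 nt, with 95.8% ± 1.61 at a distance of 4 nt (33 events) and 99.9% in each library at 1 nt (19 events), so the level over all distances depends on their mix.

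**Figure D3:**
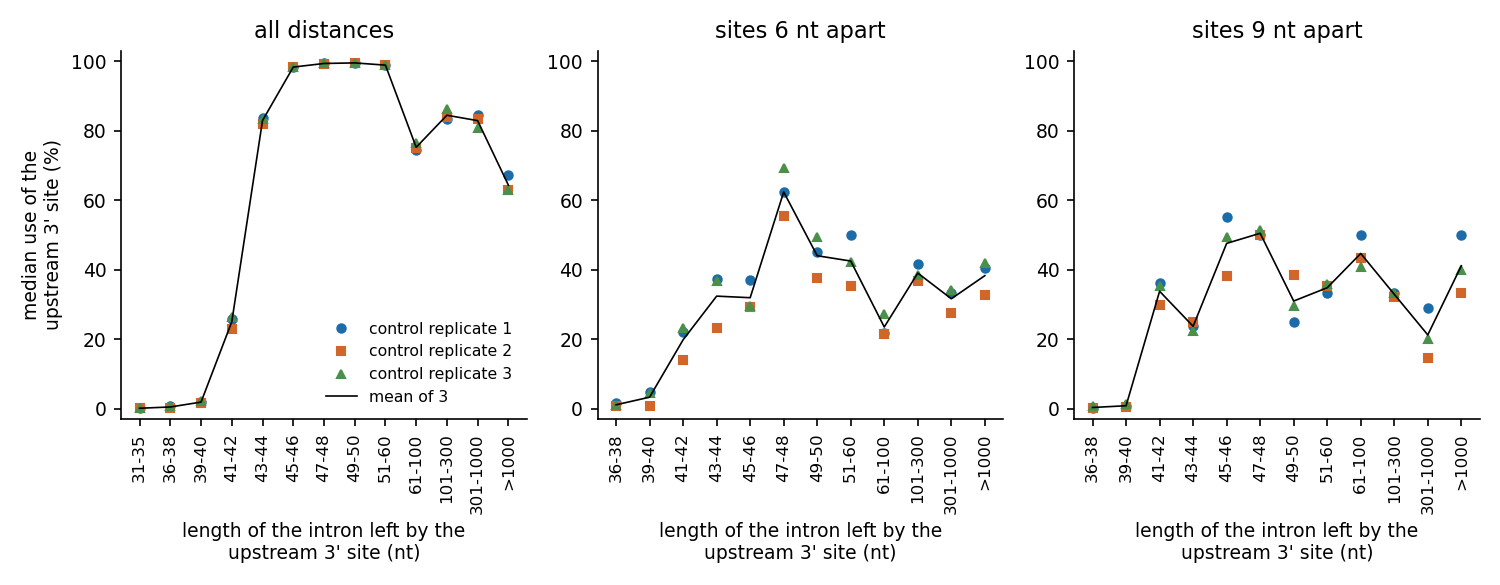
Median use of the upstream 3’ splice site (percent) against the length of the intron that it leaves (nt, in bins), for all alternative 3’ events and for those with sites 6 nt or 9 nt apart. Points are the 3 smg-4 control libraries and the line is their mean. Lengths under 31 nt are not drawn. The mean is under 4% up to 40 nt in each panel and rises at 41 to 42 nt, to 25%, 19.8% and 33.8%.

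The downstream 5’ site shortens the intron in the same way. Few 5’ events reached such lengths, with 41 that left 36 to 38 nt and 108 that left 39 to 40 nt. Median use was 21.5% ± 17.3 in the former and 3.803% ± 1.13 in the latter, and 34.3% ± 1.75 in the 498 events that left 41 to 42 nt. From 45 to 46 nt on, it lay between 0.320% and 10.2%. The 5’ sites thus also had a higher median at 41 to 42 nt than at 39 to 40 nt, but no plateau at greater lengths. At a fixed distance of 1 nt the order was the other way, with a median downstream use of 99.0% ± 0.204 at 45 to 46 nt, 2.99% ± 0.604 at 47 to 48 nt and 0.199% ± 0.0912 at 49 to 50 nt. The share of these events with the downstream site above 50% fell far less, from 53.2% to 45.97% and 39.96%. The minor site was used under 1% in 86.7% of all 5’ events 1 nt apart, so the median jumps where that share crosses 50%. At 4 nt no bin had a median above 0.517%. Introns removed with the main site had a median of 114 nt in the 1003 5’ events shared in every library, and of 58 nt in those with a minor site under 1%. For 3’ events these medians were 76 nt and 59 nt. By chromosome, both 5’ sites were used by the mean in 11.6% of events on chromosome I and 19.5% on V, the lowest and the highest, and 3’ sites ranged from 20.8% on I to 26.5% on X. By the stricter count in every library, I and V remained the lowest and the highest for 5’ sites, with 4.65% and 7.92%. For 3’ sites the order did not hold, since X was then the lowest, with 9.15%, and I had 11.7%.

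Pairs shared in near equal parts, with close values in the 3 libraries, were found at several spacings. 5’ sites 4 nt apart at position 14736 and 14740 on the minus strand of chromosome III had a downstream use of 45.9%, 47.97% and 54.7%. On chromosome III, 5’ sites 21 nt apart, at 2783905 and 2783926, gave 49.1%, 48.5% and 50.3%, with an SD of 0.919 points. These are pairs with a stable even split. A 3’ pair 10 nt apart on chromosome IV, at 10223292 and 10223302, gave 50.4%, 50.6% and 50.1% for its upstream site. Another on chromosome III with sites 6 nt apart, at 4579082 and 4579088, gave 49.3%, 45.3% and 52.5%. Such stable pairs were a minority. Among 5’ events with a mean PSI of 30 to 70%, 133 of 1148 had an SD of at most 5 points (11.6%), against 267 of 1504 3’ events (17.8%) and 53 of 130 skipped exons (40.8%).

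The sequence at the sites is known here for the introns that the study lists as affected in its mutants, whose supplementary list gives the gene and the bases. Of its 166 lines for 5’ sites, 160 could be matched by position to 109 events with a single entry for the gene (in 2 of the events with bases, an entry that none is annotated), and of 166 lines for 3’ sites, 164 matched 105 events. All were scored in the 3 control libraries. This list was chosen for differences from these same control libraries, so its control values are a description with no test. In the control these 5’ events were close to the end of the scale: the median use of the minor site was 0.269%, the upstream site was the main one in 99 of 109, and 3 had a minor site of at least 10%. The listed 3’ events were the opposite, with a median minor use of 31.7% and 101 of 105 at 10% or more.

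Bases are given here for 81 of the listed 5’ events, and the site in use followed the GU. In 44 of them only the upstream intron start was GU (written GT below), and the upstream site was the main one in all 44. In 5 only the downstream start was GU, and the downstream site was the main one in all 5. Where both starts were GU, the upstream site was the main one in 29 of 31, and in the 1 event with neither, the downstream site was. The following introns, shown because they span the range of control use at sites 1 nt apart, begin at the upstream site, and the capitals mark the first 2 bases of the intron that starts at the downstream site.
C36E8.4: gTTagggaaagtg
B0495.7: gTTagattgtttt
T23E1.2: gTTaggaatttct
T21H3.9: gTTagttatttag
F44D12.2: gGTtgtgactctt
cbs-1: gGTaggaaatggg

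C36E8.4 (chrIII:4013474-4013519, in the ce10 build used for all positions) used its downstream UU start at 17.2%, 31.1% and 25% in the 3 libraries. It was the highest of the 38 introns of this kind, and its values did not overlap with those of any other. B0495.7 (chrII:7704782-7704833) had 7.14%, 3.85% and 8.70% and T23E1.2 (chrIV:3146572-3146626) had 3.70%, 5.80% and 4.71%, and these 2 overlapped. T21H3.9 (chrV:17655732-17655794), a gene whose intron the study examined on its own, had 1.35%, 1.66% and 2.22%, a mean of 1.74% ± 0.442 (SD, n = 3). Over the 38 introns the median was 0.506% and the lowest was at the end of the scale. unc-52, which encodes the basement membrane protein perlecan, also has sites 1 nt apart and stood at the end of the scale in all 3 libraries. Where the letters shift the GU to the second base, the order was turned around. F44D12.2 (chrIV:10014342-10014385) used the downstream site at 93.1%, 91.9% and 98.5%, and cbs-1 (chrX:10054940-10054983), a cystathionine beta-synthase gene, was at 99.9% in each library. The 4 introns of this form had a median downstream use of 98.7%.

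Introns with overlapping or neighboring GU starts 2 and 4 nt apart are shown next, since both sites carry the usual bases and the choice still differed, with W07E6.2, whose downstream start is GC, beside them. Capitals again mark the start of the shorter intron.
cyp-43A1: gtGTgagtcttga
dhp-2: gtGTgagtccaac
F59A7.5: gtGTtcgaattga
M60.6: gtGTgaccgtatt
spas-1: gtGTttagtttgg
W07E6.2: gtGCaggaaaatc
exos-9: gttcGTtagtttt
nhr-142: gtaaGTacataat
oig-4: gtaaGTgaaaatt

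cyp-43A1 (chrX:5716110-5716757), a cytochrome P450 gene, split its splicing nearly evenly, with 51.2%, 48.4% and 54.9% at the downstream start. dhp-2 (chrIV:9978249-9978299), a dihydropyrimidinase gene that has the same bases around that start, used it at 96.7%, 96.1% and 97.0%. These were the only 2 of the 20 GU/GU introns at 2 nt with the downstream site ahead, and the median of the 20 was 0.157%. F59A7.5 (chrV:2023434-2023691) had 5.62%, 1.77% and 5.32%. M60.6 (chrX:8250328-8250617), which the study also examined, had 0.1%, 1.61% and 2.97%, so 1 of its libraries was at the end of the scale. spas-1 (chrV:9176580-9176679), a spastin-family gene, and W07E6.2 (chrII:483103-483653) were at the end in all 3. The study's text describes the spas-1 intron as one with a downstream UU start, whereas its list gives the bases shown here. At 4 nt, exos-9 (chrIII:7197747-7197796), a subunit of the RNA exosome, used its downstream GU at 19.3%, 17.3% and 17.4%. nhr-142 (chrV:5787673-5787723), a nuclear hormone receptor gene, had 5.26%, 11.9% and 6.82%, and oig-4 (chrII:7614039-7614266) was at the end of the scale although its first 6 bases are those of nhr-142. cec-10 had 2.82%, 0.1% and 2.63% at a spacing of 2 nt. By the use of the minor site, the listed small shifts thus ran from the end of the scale to a nearly even split, with a median under 1%.

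Listed 3’ introns from those with the highest and the lowest minor use are shown next with ZK632.7, ordered by the use of the upstream site and with both AG ends in capitals. Other listed introns used the upstream site more, up to 69.9% in C18E9.3.
M88.5: gtgaacAGttttcAG
W08G11.3: ttcacaAGttccAG
ZC376.7: tgaaatAGtttcAG
ZK632.7: ccaaaaAGttccAG
C02E11.1: gtcaaaAGcttcAG
C04A11.3: tgaataAGtatgatttcaAG
Y67D8A.1: tttgaaAGtttttccAG

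M88.5 (chrIII:4559551-4559605), with AGs 7 nt apart, used the upstream one at 54.3%, 55.2% and 50.6%. W08G11.3 (chrV:16370751-16370822) had 57.6%, 47.8% and 48.9% and ZC376.7 (chrV:14196272-14196323) had 50.4%, 44.7% and 50.7%, so these 3 introns overlapped near an even split. ZK632.7 (chrIII:9819860-9820078) had 40.5%, 28.2% and 32.7%. C02E11.1 (chrV:1048408-1048461) had 9.68%, 4.55% and 15.8%, C04A11.3 (chrX:13681286-13681340) had 11.8%, 0.1% and 18.2%, and Y67D8A.1 (chrIV:3238223-3239070) had 6.25%, 8.51% and 6.38%. Replicate 2 was the lowest of the 3 libraries in 9 of the 12 listed 3’ introns with the highest or lowest minor use. Of the 62 listed 3’ events with printed bases, the base before the upstream AG was A in 39 and C in 8, and before the downstream AG it was C in 55 and A in 4. CAG is the end of the consensus, and in 35 introns an AAG lay upstream of a CAG. Their median use of the upstream AAG was 31.7%, and 6 of the 35 were above 50%.

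**Figure D4:**
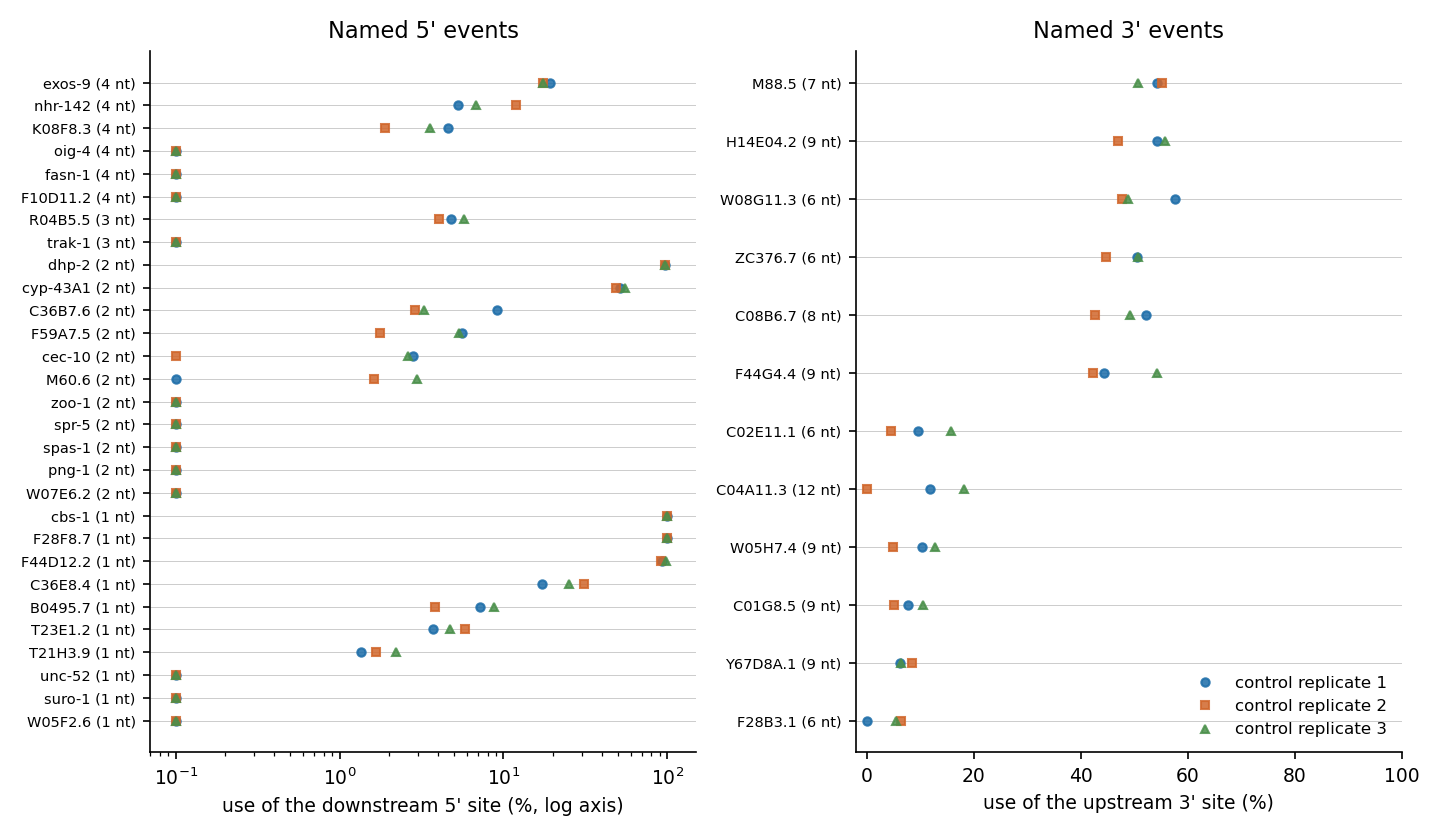
Control PSI of the listed events with the highest and lowest minor use and of the genes named by the study, with a row for each intron (distance between its sites in parentheses) and a point for each smg-4 control library. The left panel gives the use of the downstream 5’ site on a log axis, and the right panel the use of the upstream 3’ site on a linear axis. The 5’ events sit at 0.1% or in the low percents apart from C36E8.4, exos-9, cyp-43A1 and the few introns with the downstream site ahead, and the 3’ events, drawn from both extremes of minor use, lie near 50% or at or under 18.2%, while the median minor use of all listed 3’ events, 31.7%, lies between.

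Annotated classes were more often mixed. Skipped exons had a median PSI of 54.2%, 56.6% and 56.6% in the 3 libraries, a mean of 55.8% ± 1.39 (SD, n = 3). Of the 572, 312 had a mean PSI of 10 to 90%, 105 were under 10% and 155 were over 90%. Short exons were included less. Exons of up to 30 nt were included at a median of 20.8% ± 6.22 (52 exons) and those of 31 to 60 nt at 30.1% ± 3.12, while the median was 58.3% ± 1.74 at 61 to 100 nt and 77.2% ± 1.27 at 101 to 150 nt. Longer exons were not included more, with 72.0% ± 1.21 at 151 to 300 nt and 64.5% ± 6.93 above 300 nt. All 3 libraries were lower in both short classes than in any longer class. Exon lengths were a multiple of 3 in 426 of the 572 (74.5%). These frame-preserving exons had a median PSI of 56.3% ± 1.74 and the others of 54.2% ± 3.36, a difference smaller than the spread between libraries. An exon of 254 nt on chromosome III within chrIII:9863711-9864873 was included at 51.3%, 43.98% and 51.9%.

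Retained introns fell into both extremes. The median PSI was 48.6% ± 1.28, but only 230 of 828 events lay between 10 and 90%, with 263 under 10% and 335 over 90%, and 246 stood at an end of the scale in every library. No steady relation with intron length was found: the median was 31.5% ± 1.32 at 51 to 60 nt, 78.6% ± 2.67 at 61 to 100 nt, 96.3% ± 0.426 at 101 to 200 nt and 24.7% ± 1.27 above 200 nt. Introns of a length that keeps the frame had a median of 48.3% ± 2.31 and the others 49.1% ± 2.01. An event at chrV:10160550-10160887 was retained at 47.9%, 48.7% and 51.04%. The same intron, when removed, was cut at either of 2 5’ sites 5 nt apart, at 10160851 and 10160856, with 62.1%, 60.8% and 64.7% at the downstream one.

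Multiple skipped exons were mostly included together, with a median PSI of 96.8% ± 1.07 and 100 of 167 events over 90%. Where 2 exons were skipped as a unit the median was 91.0% ± 1.31 (98 events), and where 3 or more were it was at the end of the scale in each library (69 events). Mutually exclusive exons were the class with the largest mixed share, since 55 of 72 lay between 10 and 90% and 4 were above 90%. Their median was 46.997% ± 1.05, and an event at chrV:4503949-4505891 gave 53.7%, 51.5% and 55.3%. Alternative first exons had a median of 73.8% ± 1.04. In 458 of 518 the included form had the outer first exon, the one farther from the shared exon, and the median was 67.0% ± 0.533. In the other 60, with the inner first exon, it was at the end of the scale, 99.9%, in each library. Alternative last exons had a median of 66.6% ± 1.32, with 54.8% ± 1.11 where the included form had the outer last exon (153 events) and 81.9% ± 2.64 where it had the inner one (88 events). This class holds events that are also 3’ pairs. In the event at chrIII:3869600-3870424, with 50%, 53.0% and 48.6%, the last exons begin next to the 3’ sites 3870259 and 3870250, 9 nt apart. The upstream use of that pair was 50%, 46.97% and 51.4%. How many last exon events are such pairs was not counted. In 4 classes both scores often do not fill the whole scale, and PSI rests on their ratio. Read as the included score alone, the medians of these classes were lower: 25.96% for mutually exclusive exons, 28.9% for retained introns, 41.5% for skipped exons and 89.4% where several exons are skipped.

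**Figure D5:**
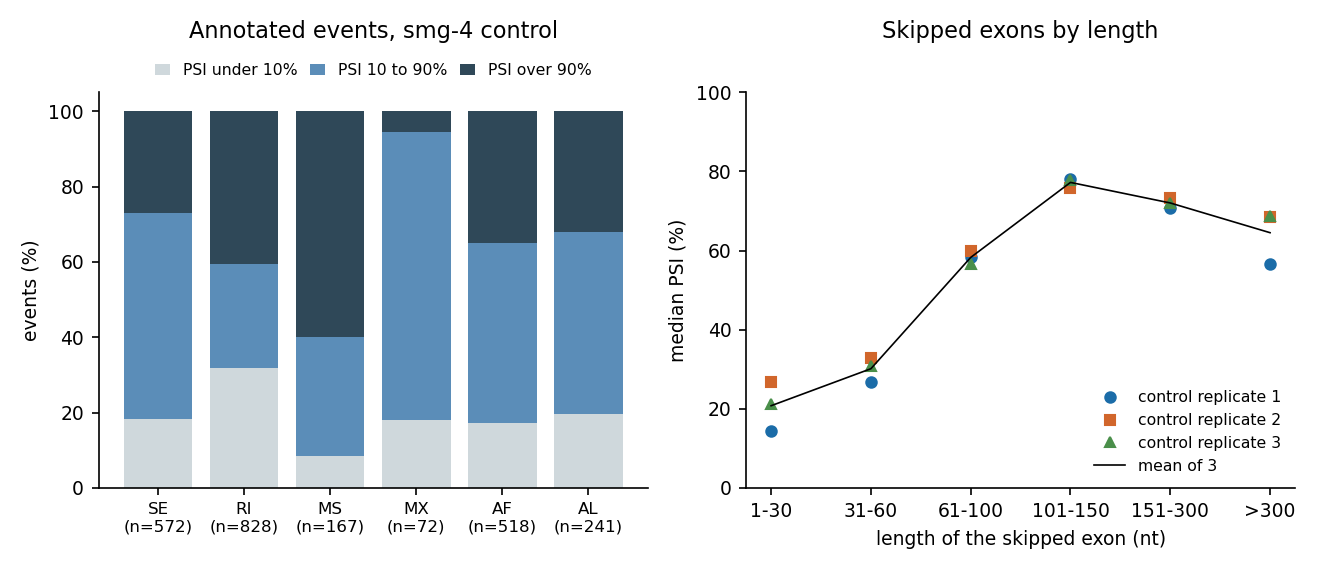
Left, percent of annotated events with a mean control PSI under 10%, of 10 to 90% and over 90%, by class (SE skipped exons, RI retained introns, MS multiple skipped exons, MX mutually exclusive exons, AF and AL alternative first and last exons, with the number of events). Right, median PSI of skipped exons by exon length in nt, with a point for each smg-4 control library and a line for their mean, which goes from 20.8% at up to 30 nt to 77.2% at 101 to 150 nt and is 64.5% above 300 nt.

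By mean absolute difference, the libraries of the control differed from each other about equally. Between pairs of them the mean absolute difference in PSI was 5.25 to 5.35 percentage points for 5’ events, 6.47 to 7.12 for 3’ events, 5.78 to 6.13 for skipped exons and 3.29 to 3.93 for retained introns. Alternative first exons had the largest, 7.91 to 9.38, and multiple skipped exons the smallest, 2.73 to 3.01. This measure gives no direction, and at 3’ sites replicate 2 stood lower. Over events scored in all 15 libraries, upstream 3’ sites at 6 or 9 nt were used at 37.9% in replicate 2, against 40.2% and 39.7% in replicates 1 and 3. Middle values were the least certain in the 5’ class. Events with a mean PSI of 30 to 70% had a median SD of 31.8 points for 5’ events, 15.5 for 3’ events, 11.5 for alternative first exons and 3.85 to 5.91 for the other 5 classes.

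To see where the control stood apart from the rest of the series, it was compared with the mean of the 4 mutant strains by limma, on events scored in all 15 libraries. A call needed a mean difference over 20 percentage points and an adjusted p (Benjamini-Hochberg) under 0.05. Of 15261 5’ events 93 were called (0.609%), 28 with a higher use of the downstream site in the control (0.183%) and 65 with a lower use (0.426%). Of 12325 3’ events 63 were called (0.511%), 2 with a higher use of the upstream site in the control (0.0162%) and 61 with a lower use (0.495%). Of 2285 annotated events 22 were called (0.963%), 9 higher (0.394%) and 13 lower (0.569%). Smaller differences ran the same way in 5’ sites: of 1439 events past the adjusted p at any size (9.43%), the downstream site was used less in the control in 1244. Introns were kept with at least 5 reads over all samples, most of them mutant, so sites read mainly in mutants could enter. Such sites read lower in the control by selection, and how far this set the direction of these counts was not tested. At any size, 197 3’ events (1.6%) and 196 annotated events (8.58%) passed.

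Between the control and the mutant libraries, 49 of the 93 called 5’ events and 43 of the 63 called 3’ events did not overlap, against 2.13% and 1.56% of all events tested. The same held for 9 of the 22 called annotated events, against 4.16% of those tested, with 2 each among skipped exons, multiple skipped exons and alternative first and last exons and 1 retained intron. Both last exon events are mirror images of a single choice, with the same control values as a listed 3’ pair. Of the called events, 24 of the 93 at 5’ sites and 44 of the 63 at 3’ sites are on the study's list, which matched 109 and 105 events. That list was chosen by differences from these same control libraries, so the overlap is no independent support for the calls. The called events were not spread evenly over the distances. At 5’ sites 2 nt apart 19 of 1047 events were called, all with less downstream use in the control, which is 1.81%. The share was 1.18% at 5 nt and 1.14% at 25 to 50 nt, where 8 calls were higher and 12 lower in the control. It was 0.401% at 1 nt, below that of all 5’ events, and at 3 nt 6 calls were higher and 2 lower. At 3’ sites 6 nt apart 33 of 1081 were called, and at 9 nt 12 of 871, all lower in the control. The mean use of the downstream 5’ site over all events 1 nt apart was 42.2% in each control library and 42.3% to 44.1% in the 12 mutant libraries. At 4 nt it was 14.24% to 14.27% in the control and 14.35% to 15.57% in the mutants, so at both distances the groups did not overlap. The KIN17 libraries were close to the control, at 42.3% to 42.5% at 1 nt and 14.35% to 14.61% at 4 nt. The PRCC libraries were farther away, at 43.6% to 44.1% and 14.92% to 15.57%. A comparison with the mean of the 4 mutant strains does not show which of them differ from the control. Upstream 3’ sites at 6 or 9 nt were used at 37.9% to 40.2% in the control and at 40.3% to 45.7% in the mutants, again without overlap, although the nearest values were close. In such bulk samples fewer cells of a type and less RNA per cell cannot be told apart. In synchronized animals, the study saw no strain difference at the few alternative 3’ events that it examined. It proposes that the 3’ changes in mixed-stage cultures may come from a changed amount of germ line, which was not tested here. The study also points to an overlap with 3’ events known from the germ line and to fewer progeny of the mutants. For KIN17(K23N) it further reports germ line terms among genes with changed expression. The libraries of the control, KIN17(K23N) and PRCC(I371F) are numbered 1 to 9 and those of the other 2 strains 24 to 29, and what the numbering stands for was not given.

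Several single events were distinct in all 3 control libraries. Sites 3 nt apart on the minus strand of chromosome II, at 7662916 and 7662919, used the downstream one at 99.9% in each control library and at 11.5% to 73.3% in the mutants, a mean difference of 59.7 points (adjusted p = 5e-06, 5.3e-07 to 0.00069 over the alternative settings). A 3’ pair 6 nt apart on chromosome IV, at 1929365 and 1929371, was at the end of the scale in the control and at 10% to 60.5% in the mutants (difference −39.1 points, adjusted p = 0.0013, 3.1e-05 to 0.042 over the alternatives). A pair 1 nt apart on chromosome X, at 11882405 and 11882404, was also at the end in the control and at 50% to 99.9% in the mutants (difference −88.7 points, adjusted p = 0.0074, 0.0056 to 0.042). The number of reads behind these events is unknown. ZK632.7, shown above, had 28.2% to 40.5% in the control and 47.4% to 83.8% in the mutants (difference −32.8 points, adjusted p = 0.0068). With only KIN17(K23N) and PRCC(I371F) as the mutants its adjusted p was 0.081, the highest of its alternatives, which went down to 0.0068. It is on the study's list, which was chosen on the same libraries.

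The largest called 5’ differences were less even. With less use of the downstream site in the control, sites 45 nt apart at 8193227 and 8193182 on chromosome III had 0.1%, 0.1% and 50% in the control and 72.7% to 99.9% in the mutants (difference −80.3 points, adjusted p = 0.001, 0.0004 to 0.017 over the alternatives). Another pair 45 nt apart, at 6641966 and 6641921 on chromosome IV, had 50%, 0.1% and 0.1% against 66.7% to 99.9% (difference −77.4 points, adjusted p = 0.0032, 0.0016 to 0.045). With more use in the control, sites 5 nt apart at 5230430 and 5230425 on chromosome III had 92.9%, 99.9% and 99.9% against 0.1% to 88.9% (difference 70.6 points, adjusted p = 0.019, 0.0083 to 0.12). Sites 49 nt apart at 10460565 and 10460614 on chromosome V had 99.9% in each control library and overlapped with the mutants, at 0.1% to 99.9% (difference 70.5 points, adjusted p = 0.041). That call was lost without any 1 of the control libraries (adjusted p = 0.14) and ranged from 0.012 to 0.21 over the alternatives. Thus the largest differences were not the firmest calls. On chromosome V, 5’ sites 5 nt apart at 4630276 and 4630271 had a downstream use of 0.1%, 0.1% and 83.3% in the control and of 96.2% to 99.9% in the mutants (difference −71.5 points, adjusted p = 0.0013). A 3’ pair 34 nt apart at 6395259 and 6395225 on chromosome V had exactly 50% in each control library and 0.1% in each mutant library (difference 49.9 points, adjusted p = 2.3e-11), with an unknown number of reads behind it. Libraries of the same strain did not vary at this pair, so the spread behind this limma p was borrowed from other events. Its small size is therefore no measure of how firm the call is. Among annotated events, an alternative last exon event at chrIV:8983688-8984691 had 62.7%, 77.0% and 63.4% in the control and 22.1% to 51.5% in the mutants (difference 32.6 points, adjusted p = 0.0041). It begins at the base after a 3’ site, at 8983687, whose upstream partner 9 nt away was used at 30.99%, 15% and 26.1% in the control and 39.2% to 77.7% in the mutants. Its mirror event had 37.3%, 22.95% and 36.6% in the control. These are also the values of a listed 3’ pair 7 nt apart in C53B4.4. The last exon event may thus be that 3’ choice counted in another class, and it is not a separate finding from the study's list. A unit of exons at chrII:11061007-11062118 was included at 34.5% to 50% in the control and at 55.3% to 74.7% in the mutants (difference −25.8 points, adjusted p = 0.0041). With only KIN17(K23N) and PRCC(I371F) as the mutants, the adjusted p of these annotated events was 0.21 and 0.28, and the lowest over their alternatives was 0.0033 in both.

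The number of 3’ calls depended on the libraries used. It was 12 against KIN17(K23N) and PRCC(I371F), 25 against KIN17(M107I) and PRCC(null) and 23 without control replicate 2, but 79 without replicate 1 and 58 without replicate 3. When all 36 differences between a control and a mutant library had to exceed 15 points, 14 5’ events, 2 3’ events and 0 annotated events were left.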

How the data were processed

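Per the labels and the study's methods, paired directional reads of 75 nt were trimmed and aligned to ce10 with a STAR adapted to UU/AG introns, and introns needed at least 5 reads over all samples. The processing notes also name cutadapt, Bowtie2 and SAMtools. The deposited values are scores that the authors made as a fraction times 1000, with ends at 1 and 999, and PSI was taken as the included score over the sum of both. Event-level read counts are not in the tables, so the depth of an event is unknown, and reads were not used here. Controls were compared with the mean of 4 mutant strain means by limma 3.58.1 (R 4.3.3, trend and robust) on log2((PSI + 0.01)/(1 − PSI + 0.01)), after a check on simulated data, with adjustment within the 5’, the 3’ and the annotated events. Replicates are separate RNA isolations, and p-values measure the spread between them, which limma moderates with the spread of other events. Members and lists were chosen with earlier results of these data known. Named events were those of genes the study discusses (4 of 9 paired with an event), of a list of known spliced genes (1 of 33 paired), the highest and lowest minor use among listed sites, stable events nearest to 50% and, in part, the events with the largest called differences. ZK632.7 was named by its called difference. List lines were matched within 5 nt, and bases of chromosome I were not used. Alternatives changed the use limit, pseudocount, filter, strains and libraries.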

Additional observations from a re-analysis of the deposited data

How the results depend on the processing

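The tables used hold no read counts per event, so values near the ends of the scale and exact 50% values carry an unknown counting error. No paired analysis was possible because replicates were numbered in accession order and share no label across strains. A minor use of 20% gave 1736 shared 5’ events, events scored in all 15 libraries 1604, and 10% in every library (chosen after seeing the data) 1003 5’ and 1524 3’ events. The share of shared 5’ events with a minor downstream site was 48.6% at a 5% limit, 45.6% at 20%, 47.4% with each pair once, 50.9% by the limit in every library and 46.7% to 47.1% without 1 control replicate. For multiples of 3 nt it was 34.2%, 40.1% and 38.1% at 5%, 20% and in every library, and 37.3% to 37.7% without 1 replicate. At 3’ sites the minor upstream share was 47.3% at 20% and 53.1% in every library, and the multiples of 3 nt were 51.9%, 60.4% and 62.6%. The included score alone gave 25.96% (mutually exclusive exons), 28.9% (retained introns), 41.5% (skipped exons) and 89.4% (several skipped exons). Alternative first exons ranged from 72.5% to 74.5% without 1 replicate. With no limit on the difference, limma called 1439 5’, 197 3’ and 196 annotated events. Of the 3’ calls, 12 were made against KIN17(K23N) and PRCC(I371F), 25 against the other strains and 23 to 79 without 1 replicate, the lowest without replicate 2. The rule on all 36 library pairs left 14 5’, 2 3’ and 0 annotated events. Against KIN17(K23N) and PRCC(I371F) limma called 0 annotated events, with 232 at an unadjusted p under 0.05. The cause of these changes was not tested. Both minor-site shares crossed 50% under alternatives, the 3’ one also without replicate 2 (49.2%) or 3 (48.9%), so neither side is the more often minor one throughout. No named event changed sign.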
